A study of Drosophila melanogaster with 16 samples.

Results

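The genes described here lie on chromosome 4 of Drosophila melanogaster, the small dot chromosome. They were taken by name from a list of 48 symbols, which was chosen with earlier results of these data known. The symbols stand for 47 genes, since Caps and Cadps name the same one, and all 47 are in the tables and on chromosome 4 in the annotation. They are 47 of the 91 chromosome 4 genes and of the 15682 genes listed. FlyBase has renamed bip2 to Taf3, Thd1 to Tdg and Arf102F to Arf4, and the older names are used here.

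The study measured total RNA of mixed sex embryos by sequencing, in 16 libraries that form 4 groups of 4. Control mothers, labelled MTD control, carried the driver insertions P{COG-Gal4:VP16} and P{nos-Gal4-VP16}, together with P{Gal4-nos.NGT}40. The mothers of the clamp RNAi group carried each of these over another chromosome. P{COG-Gal4:VP16} was over y[1] sc[*] v[1], P{nos-Gal4-VP16} over the hairpin insertion P{TRiP.GLC01858}attP2, and P{Gal4-nos.NGT}40 over a chromosome labelled +. The nos promoter acts in the germline, so the hairpin is made by the mother, and the copy number of the drivers and part of the genetic background differ between the groups together with the hairpin. The effects of the hairpin, of driver copy number and of background cannot be told apart by these groups. All mothers were virgins mated to yw males, and their embryos were gathered in an early window (0-2 hr) and in a later one (2-4 hr). The earlier window holds mostly RNA that the mother put into the egg, and the later one holds the main onset of zygotic transcription.

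The values come from 1 comparison table per collection, in which DESeq set a condition B against a condition A. No header or label says which genotype either letter stands for. Clamp encodes the zinc finger protein that the hairpin targets. In the authors' deposited table its RNA was 66.0-fold lower in B at 0-2 hr (log2 -6.04, adjusted p 2.62e-179). For the later collection the authors' deposited table gave Clamp a log2 of -5.28, with an adjusted p listed as 0. B is therefore the condition with less Clamp RNA, and nothing more is read into the letters. The columns used hold a mean over both conditions, a fold and a p-value, so no value per library, no standard deviation and no depth of a library can be given. Summed over all genes, these means came to 14955921 reads in the early table and to 13946624 in the later one. No label says that libraries of a group came from separate crosses, so the p-values measure the spread between libraries, which may be technical.

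Markers of older embryos had log2 values mostly below 0, and few passed the test. Of 11 muscle genes found, 10 had a mean of at least 20 at each time, and all 10 had a log2 below 0. Their median log2 was -2.75 at 0-2 hr and -5.05 at 2-4 hr, DESeq called 0 of them at either time, and 0 had an unadjusted p under 0.05. Over both conditions their means added up to 1330 at 0-2 hr and 1774 at 2-4 hr. The markers of epidermis and cuticle had medians of -5.22 over 3 genes and -2.43 over 5, with 0 called and at most 1 at an unadjusted p under 0.05. The neuron markers had medians of -0.18 over 6 genes and -1.06 over 9, with 1 called lower at each time and 1 called higher at 0-2 hr. Those called at 0-2 hr were abundant in the authors' deposited table, Csp (lower, mean 4155) and Syx1A (higher, mean 1301). The 4 uncalled ones there had means from 30.0 to 144. At 2-4 hr the neuron marker called lower was elav (mean 736 in the authors' deposited table). The counted muscle markers had means from 39.2 to 402 at 0-2 hr and from 33.5 to 511 at 2-4 hr. Whether older embryos in condition A took part in the values of the chromosome 4 genes below was not tested.

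Chromosome 4 is packed almost wholly in a heterochromatin-like form, rich in the HP1 protein and in remnants of transposons, yet many of its genes are active. A protein dedicated to it, POF, binds genes along the chromosome and balances its output, and the H3K9 methyltransferase encoded by egg acts there too. Clamp binds GA-rich DNA on the X chromosome and elsewhere, and the comparison asks how the RNA of these genes stood when Clamp was depleted in the early embryo. In these embryos, fewer cells of a type and less RNA per cell cannot be told apart.

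At 0-2 hr the members that changed mostly fell, by 1.20-fold to 1.75-fold except for ey. At 2-4 hr more rose than fell, and the 4 that fell were the transcription factor genes ci, zfh2, ey and toy, while another 4 of the 17 transcription factor genes rose. A count of members holds those with a mean normalized count of at least 20, and a gene is called where its DESeq adjusted p, taken over all genes of the table, is under 0.05. At 0-2 hr 40 of the 47 members reached that mean, of which 8 were called lower and 3 higher in B. That is 20% lower and 7.50% higher, beside 10.3% lower and 9.82% higher among all 7037 genes of the table with that mean. The other 7 were toy, NfI, onecut, dati, Gat, yellow-h and Syt7. At 2-4 hr 45 members reached it, all but Gat and yellow-h, with 4 called lower (8.89%) and 8 called higher (17.8%). Among all 7399 genes with such a mean at 2-4 hr, 15.4% were called lower and 13.1% higher. The median log2 of the members was -0.11 at 0-2 hr and 0.064 at 2-4 hr, and that of all genes above the same minimum was -0.0063 and -0.0078.

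Genes with more reads are called more easily, so the members were also set beside genes of similar mean outside chromosome 4. Among members with a mean of 1000 or more, 6 of 27 were called lower and 1 higher at 0-2 hr, which is 22.2% and 3.70%. Outside chromosome 4 these shares were 12.9% and 9.71% of 2884 genes. At 2-4 hr 1 of 27 such members was called lower and 4 higher, or 3.70% and 14.8%, beside 21.3% and 12.6% of 2346 genes. Between a mean of 100 and 1000, 2 of 9 members were called higher and 1 lower at 0-2 hr, or 22.2% and 11.1%, beside 10.8% and 8.75% outside the chromosome. In the same band at 2-4 hr 3 of 9 were called higher and 1 lower, beside 15.0% and 13.3% outside. Between a mean of 20 and 100, 1 of 4 members was called lower and 0 higher at 0-2 hr, beside 5.06% and 6.26% outside. In that lowest band at 2-4 hr 2 of 9 were called lower and 1 higher, or 22.2% and 11.1%, beside 8.90% and 8.48% outside. Each of these shares rests on few members, and none was tested against the others.

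**Figure D1:**
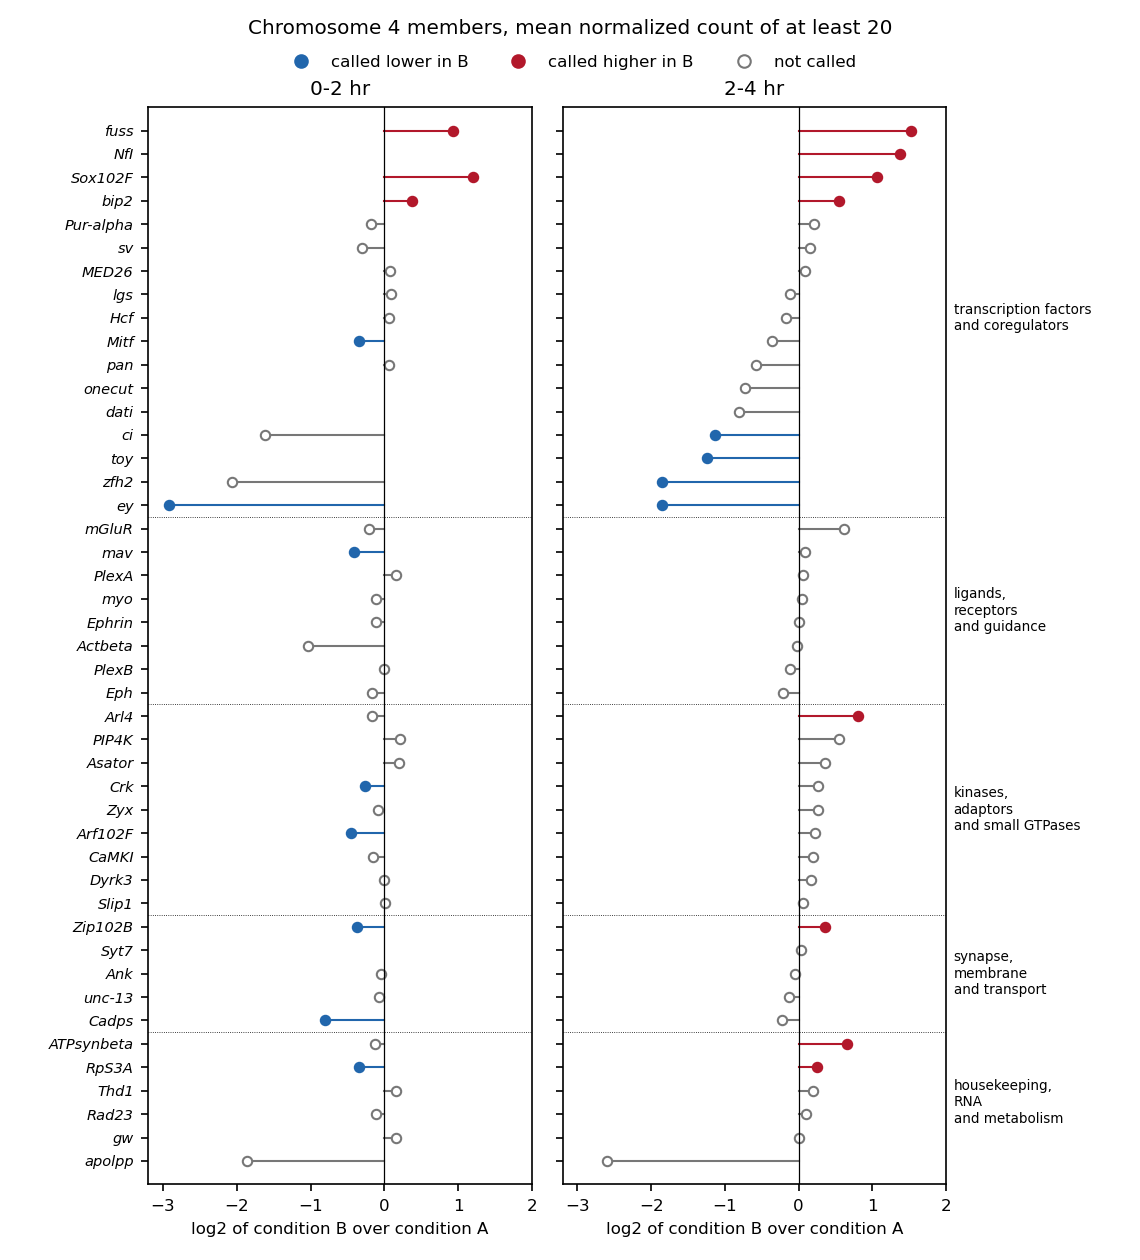
The log2 of condition B over condition A for each member with a mean normalized count of at least 20, at 0-2 hr on the left and 2-4 hr on the right, ordered by role. Filled points were called at an adjusted p under 0.05 (blue lower, red higher), and the transcription factors at the top span the widest range of called values, from -2.91 for ey to 1.53 for fuss.

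Of the 17 transcription factors and coregulators, 13 could be counted at 0-2 hr and all 17 at 2-4 hr. DESeq called 2 of 13 lower (15.4%) and 3 higher (23.1%) at 0-2 hr, beside 10.3% and 9.82% of all genes with that mean. At 2-4 hr it called 4 of 17 lower (23.5%) and 4 higher (23.5%), beside 15.4% and 13.1% of all such genes. Lower at both times was ey, a Pax6 gene and master regulator of eye development. In the authors' deposited table ey had a mean of 21.0 at 0-2 hr, just inside the minimum, and was 7.53-fold lower in B (log2 -2.91, adjusted p 0.000907). At 2-4 hr its mean there was 36.8 and it was 3.62-fold lower in the authors' deposited table (log2 -1.86, adjusted p 0.000225). The other Pax6 gene, toy, which acts upstream of ey, had a mean of 14.7 at 0-2 hr, just under the minimum. The authors' deposited table nonetheless called toy at both times, with a log2 of -2.89 (adjusted p 0.0438) and, at a mean of 61.2, of -1.25 (adjusted p 0.00224). Both Pax6 genes thus lay lower in B in both collections, on few reads at 0-2 hr.

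The zinc finger and homeodomain factor gene zfh2 and the Gli family gene ci, the transcriptional effector of Hedgehog signalling, were called lower at 2-4 hr. The authors' deposited table gave zfh2 a mean of 454 and a log2 of -1.86 at 2-4 hr (3.62-fold lower, adjusted p 2.10e-05). For ci the authors' deposited table held a mean of 1544 and a log2 of -1.13 (2.19-fold lower, adjusted p 0.0207). At 0-2 hr neither was called, although the authors' deposited table listed ratios at least as large, with a log2 of -2.06 for zfh2 (mean 119, adjusted p 0.305) and -1.62 for ci (mean 219, adjusted p 0.282). The exons of zfh2 overlap those of Thd1 on the other strand, and those of ci overlap asRNA:CR43957. No source used here says whether reads were assigned by strand. The partner Thd1 had the larger mean and the opposite sign, with a log2 of 0.20 at 2-4 hr per the authors' deposited table (mean 3299, adjusted p 0.168).

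Higher at both times were fuss, Sox102F and bip2. Exons of fuss and Sox102F overlap an annotated transposon, those of fuss also lncRNA:sphinx and asRNA:CR44030, and those of bip2 asRNA:CR45126, so part of their reads may belong elsewhere. Without genes that overlap another gene, 1 member was called higher at 0-2 hr, and without those that overlap a transposon also 1. A member of the Ski and Sno family of corepressors is encoded by fuss, which had means of 407 and 438 in the authors' deposited table. It was 1.91-fold higher in B at 0-2 hr (log2 0.93, adjusted p 8.21e-08) and 2.88-fold higher at 2-4 hr (log2 1.53, adjusted p 5.20e-22) in the authors' deposited table. For Sox102F, a Sox family factor, the authors' deposited table gave 2.29-fold at 0-2 hr (log2 1.20, mean 119, adjusted p 0.000280) and 2.09-fold at 2-4 hr (log2 1.06, mean 133, adjusted p 8.28e-05). The TFIID subunit gene bip2 is far more abundant, and its rises were smaller. For bip2 the authors' deposited table held means of 4213 and 4291 and log2 values of 0.38 (adjusted p 2.91e-05) and 0.55 (adjusted p 1.79e-05). NfI, the nuclear factor I gene, was called higher at 2-4 hr, and its mean at 0-2 hr was 13.4, under the minimum. The authors' deposited table gave NfI a log2 of 1.74 at 0-2 hr (adjusted p 0.167) and of 1.37 at 2-4 hr (mean 38.6, adjusted p 0.010).

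The bHLH factor Mitf, a regulator of lysosome genes, fell at 0-2 hr. The authors' deposited table gave it a log2 of -0.34 at 0-2 hr (mean 3561, adjusted p 0.000333) and a like value of -0.36 at 2-4 hr, which was not called (mean 1517, adjusted p 0.0734). Among the uncalled factors, pan, the TCF factor of the Wnt pathway, stood at a log2 of -0.58 at 2-4 hr per the authors' deposited table (adjusted p 0.0675) and at 0.069 at 0-2 hr. Its partner in that pathway, lgs, had values of 0.086 early and -0.12 late in the authors' deposited table. The chromatin cofactor gene Hcf, with 0.070 and -0.17, and the Mediator subunit gene MED26, with 0.071 and 0.081, were as near to 0 in the authors' deposited table. The authors' deposited table held -0.18 and 0.21 for Pur-alpha, which encodes a nucleic acid binding protein, and -0.30 and 0.16 for the Pax2 gene sv. The homeodomain gene onecut and the zinc finger gene dati, both active in neurons, were under the minimum at 0-2 hr. As listed in the authors' deposited table, onecut stood at -0.72 (adjusted p 0.707) and dati at -0.81 (adjusted p 0.372) at 2-4 hr.

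Of the 8 genes of ligands, receptors and guidance molecules, DESeq called 1 lower at 0-2 hr (12.5%), beside 10.3% of all genes with a mean of at least 20. At 2-4 hr it called 0 of the 8, of which 1 had an unadjusted p under 0.05. Of all such genes 15.4% were called lower and 13.1% higher there. The gene that fell was mav, a ligand of the TGF-beta family, with a log2 of -0.41 at 0-2 hr per the authors' deposited table (mean 1836, 1.33-fold lower, adjusted p 0.000186). In the later collection mav had a log2 of 0.086 in the authors' deposited table (mean 2144, adjusted p 0.855). The other ligands of that family, myo and Actbeta, were not called, and the authors' deposited table held -0.11 for myo and, on a mean of 25.7, -1.03 for Actbeta at 0-2 hr. Later myo stood at 0.040 and Actbeta at -0.027 there, as the authors' deposited table gives them. The ligand gene Ephrin and its receptor gene Eph, both used in axon guidance, were uncalled. The authors' deposited table listed -0.11 and then 0.0038 for Ephrin, and -0.17 and then -0.22 for Eph. The gene with the unadjusted p under 0.05 was Eph (p 0.0152, adjusted p 0.0849 in the authors' deposited table). In the authors' deposited table the semaphorin receptor gene PlexA stood at 0.16 and 0.053, and PlexB at -0.0056 and -0.11. The glutamate receptor gene mGluR, on a mean of 55.9, had a log2 of 0.61 at 2-4 hr per the authors' deposited table (adjusted p 0.268).

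Of the 9 genes of kinases, adaptors and small GTPases, 5 had a log2 below 0 at 0-2 hr. There 2 were called lower (22.2%), beside 10.3% of all genes with a mean of at least 20. At 2-4 hr all 9 had a log2 above 0, beside 28 of all 45 members and 3476 of 6963 genes outside chromosome 4. Of the 9, 1 was called higher at 2-4 hr (11.1%), beside 13.1% of all genes with that mean. The genes that fell were Arf102F, a GTPase of vesicle traffic, and Crk, an SH2 and SH3 adaptor. By the authors' deposited table Arf102F had a log2 of -0.45 at 0-2 hr (mean 2724, adjusted p 2.49e-06) and 0.23 at 2-4 hr (mean 3052, adjusted p 0.262). Those of Crk were -0.27 (mean 2275, adjusted p 0.0198) and 0.26 (mean 2581, adjusted p 0.0622) in the authors' deposited table. The related GTPase gene Arl4 rose at 2-4 hr, by 1.74-fold in the authors' deposited table (log2 0.80, mean 622, adjusted p 7.92e-06), from an uncalled log2 of -0.17 at 0-2 hr. The phosphoinositide kinase gene PIP4K had a log2 of 0.54 at 2-4 hr per the authors' deposited table (adjusted p 0.0657). Asator, CaMKI, Dyrk3, Zyx, which encodes zyxin, and Slip1 lay between 0.064 and 0.35 at 2-4 hr in the authors' deposited table, uncalled.

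Of 6 genes of synapse, membrane and transport, 4 could be counted at 0-2 hr and 5 at 2-4 hr. Cadps, which promotes the release of dense-core vesicles, fell at 0-2 hr, by 1.75-fold in the authors' deposited table (log2 -0.81, mean 163, adjusted p 0.00652). It was not called at 2-4 hr, with a log2 of -0.22 in the authors' deposited table (mean 272, adjusted p 0.707). Zip102B, a zinc transporter gene, was called in opposite directions. The authors' deposited table gave Zip102B a log2 of -0.37 at 0-2 hr (mean 1287, adjusted p 0.00450) and 0.36 at 2-4 hr (mean 1517, adjusted p 0.00702). The synaptic vesicle priming gene unc-13 and the ankyrin gene Ank are abundant in these embryos, with means of 4021 and 4859 at 0-2 hr, and were uncalled. In the authors' deposited table the log2 of unc-13 was -0.075 and -0.13, and that of Ank -0.041 and -0.055. The calcium sensor gene Syt7, with a log2 of 0.027 on a later mean of 26.1 in the authors' deposited table, was not called. Nor was the GABA transporter gene Gat, whose means were 10.5 and 14.1.

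Among the genes of housekeeping, RNA and metabolism, RpS3A, a protein of the small ribosomal subunit, also changed direction. It was the most abundant member, with means of 30420 and 35765 in the authors' deposited table. The log2 of RpS3A was -0.35 at 0-2 hr (adjusted p 0.00338) and 0.25 at 2-4 hr (adjusted p 0.0386) in the authors' deposited table. Per kb of exon RpS3A had 22550 normalized reads at 0-2 hr, ahead of 4735 for ATPsynbeta and 3088 for Rad23. ATPsynbeta, a subunit of the mitochondrial ATP synthase, rose at 2-4 hr by 1.57-fold in the authors' deposited table (log2 0.65, mean 6425, adjusted p 4.17e-10) and stood at -0.12 at 0-2 hr (adjusted p 0.276). Rad23, a repair and proteasome factor, Thd1, a DNA glycosylase, and gw, a factor of microRNA silencing, were not called, with log2 values from -0.11 to 0.20 over both times in the authors' deposited table. The gene yellow-h, of the yellow family, had means of 9.76 and 13.1 and was not called.

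The lipoprotein gene apolpp had the lowest log2 of any member at 2-4 hr and was not called. Values of apolpp in the authors' deposited table stood at -1.86 at 0-2 hr (mean 482, unadjusted p 0.355) and at -2.60 at 2-4 hr (mean 1015, unadjusted p 0.349). The muscle gene bt, another chromosome 4 gene, showed the same combination, where the authors' deposited table held -3.27 (adjusted p 0.733) and -3.54 (adjusted p 0.684). The counted muscle markers given above also had log2 values below 0, with a median of -5.05 at 2-4 hr, and were uncalled. Whether they are related to the values of apolpp and bt was not tested.

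**Figure D2:**
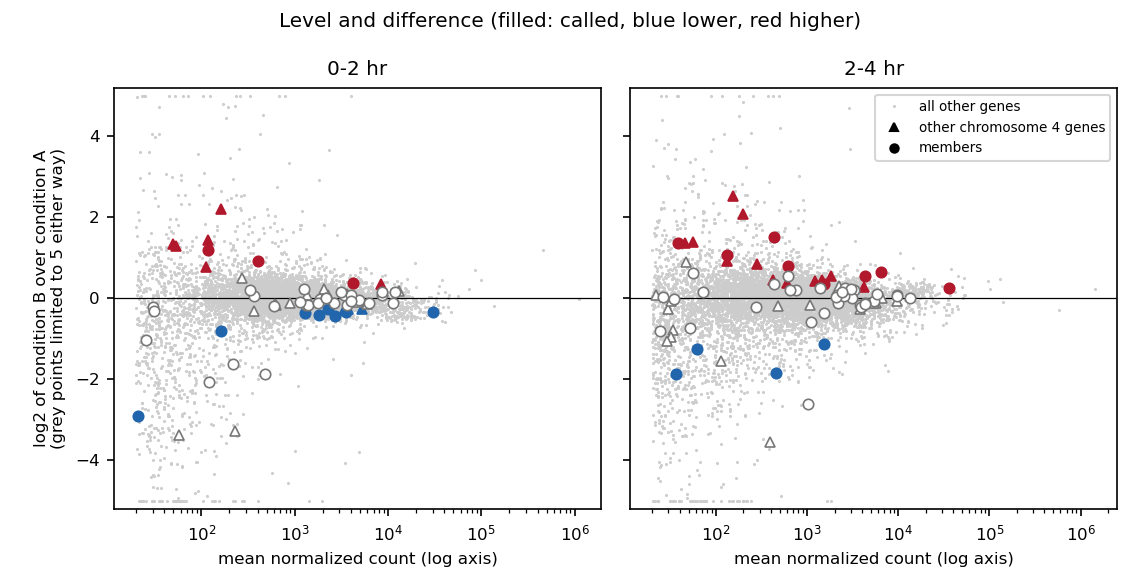
The log2 of condition B over condition A against the mean normalized count over both conditions (log axis) at each time, for members (circles), other chromosome 4 genes (triangles) and all other genes that reached a mean of 20 (grey, those with a finite log2, drawn within 5 either way). Called members with a mean over 1000 span -1.13 to 0.65, and those called with a mean under 500 span -2.91 to 1.53.

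Over the 40 members with a mean of at least 20 at both times, 3 were called higher in both collections (fuss, Sox102F and bip2), 1 was called lower in both (ey), and 2 were called lower and then higher (RpS3A and Zip102B). No member went from higher to lower, and 25 were called at neither time. Of 6535 genes outside chromosome 4, 290 were called higher in both collections and 188 lower in both. Another 33 of them went from lower to higher and 44 from higher to lower, and 3918 were called at neither time. From 0-2 hr to 2-4 hr the log2 became more positive in 28 of 40 members (70.0%), by a median of 0.19. The share was near that in the 23 other chromosome 4 genes (65.2%, by a median of 0.15). Outside chromosome 4 it was 52.9% of 6535 genes, by a median of 0.031. Across these members the log2 at one time and at the other had a Pearson's r of 0.84 and a Spearman's rho of 0.37, beside 0.80 and 0.30 over genes outside chromosome 4. The points are genes of the same libraries, and no p is given. Whether a change differed between the times could not be tested, since no value per library was used. Of the remaining members, toy was called lower at both times and NfI higher at 2-4 hr.

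The members also differ in when their RNA is present. The tables were normalized separately, so a ratio between the collections is a description. Of the 40 members, 5 had a mean at least 2-fold higher at 2-4 hr than at 0-2 hr (12.5%). The share was 0% of 23 other chromosome 4 genes and 4.39% of genes outside chromosome 4. The 5 members were ci (7.04 times), zfh2 (3.80 times), pan (3.03 times), sv (2.28 times) and apolpp (2.11 times). At 2-4 hr ci and zfh2 were called lower, and pan, sv and apolpp were not called. Another 5 members, which were under the minimum at 0-2 hr, also had a mean at least 2-fold higher at 2-4 hr. Their ratios were 4.62 for onecut, 4.17 for toy, 3.02 for Syt7, 2.88 for NfI and 2.18 for dati, and of these toy was called lower and NfI higher at 2-4 hr. The mean fell to at most 1 in 1.5 in 8.70% of the other chromosome 4 genes and 33.2% of genes outside the chromosome. Among the members such a fall was seen in 5 (12.5%), Mitf, Arl4, PIP4K, CaMKI and ATPsynbeta. Of these, Arl4 and ATPsynbeta were called higher in B at 2-4 hr, and the rest were uncalled there. The median ratio of the members was 1.14, beside 1.03 for the other chromosome 4 genes and 0.88 outside chromosome 4.

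**Figure D3:**
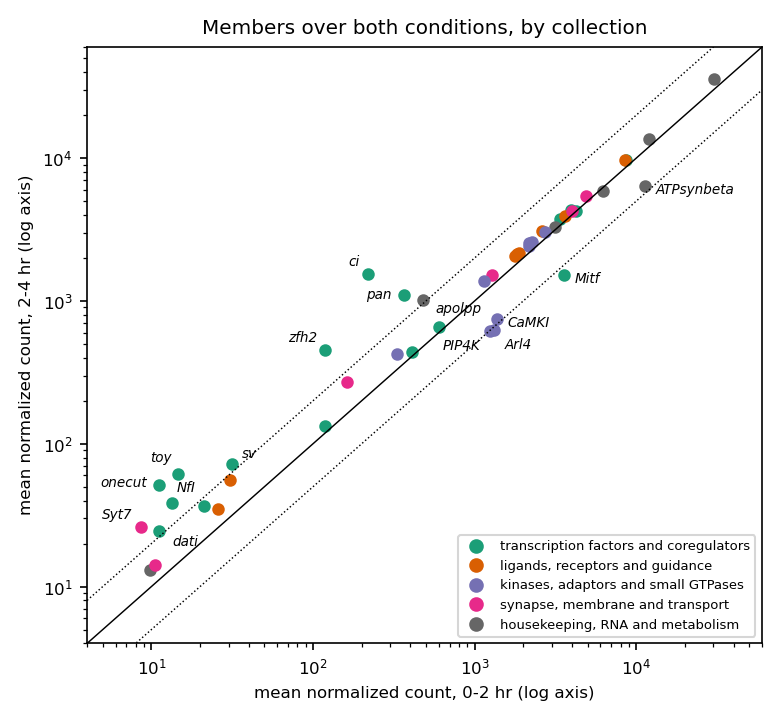
Mean normalized count of each of the 47 members over both conditions, at 0-2 hr (horizontal, log axis) and at 2-4 hr (vertical, log axis), coloured by role, with named points where the later mean was at least 2-fold higher or at most 0.67 of the earlier one. The solid line marks equal means and the dotted lines a 2-fold difference, and ci lies farthest above the solid line, at 7.04 times its earlier mean.

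Of lists of maternal and early zygotic markers, the 11 maternal RNAs had a median log2 of -0.19 at 0-2 hr, with 2 called lower (18.2%). At 2-4 hr their median was -0.0052, with 3 called lower (27.3%) and 2 higher (18.2%). Early zygotic genes had medians of -0.85 and -0.56 over 10 genes, and at 2-4 hr 4 were called lower (40%) and 1 higher (10%). At 0-2 hr DESeq called 0 of those 10, and 1 had an unadjusted p under 0.05. Of the 10, 8 had a log2 below 0 and 2 above 0 at each time. The part of embryo stage in the members' values was not tested.

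The other 44 genes of chromosome 4, which were taken whole from the annotation, were called higher more often than lower at both times. At 0-2 hr the counts were equal at an adjusted p under 0.01 (3 higher and 3 lower). They were also equal among those without a transposon in an exon, and the cause was not tested. The shares of these 44 genes were not tested against those of the members. At 0-2 hr 23 of the 44 had a mean of at least 20, with 6 called higher and 3 lower (26.1% and 13%). Among all genes with that mean, 9.82% were called higher and 10.3% lower. Of the 14 of the 23 without a transposon in an exon, 2 were called higher and 2 lower. Without genes that overlap another gene 3 were called higher and 2 lower. At 2-4 hr 30 of the 44 had such a mean, with 12 called higher (40.0%), beside 13.1% of all such genes. The 12 became 7 without a transposon in an exon and 5 without an overlap with another gene. DESeq called 0 of the 30 lower, beside 15.4% of all such genes, and 2 of the 30 had an unadjusted p under 0.05 in that direction. The median log2 of these other chromosome 4 genes was 0.078 at 0-2 hr, which turned to -0.11 with a minimum mean of 10. At 2-4 hr it was 0.055. Outside chromosome 4 the medians were -0.0052 and -0.0020.

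The other genes with the smallest adjusted p were CG31999 and CG31997, whose rises were the largest among the called chromosome 4 genes with a mean of at least 20 at each time. In the authors' deposited table CG31999 was 4.61-fold higher at 0-2 hr (mean 164, adjusted p 1.55e-17) and 4.26-fold at 2-4 hr (mean 195, adjusted p 2.75e-22). For CG31997 the authors' deposited table gave 2.72-fold at 0-2 hr (mean 118, adjusted p 0.000126) and 5.78-fold at 2-4 hr (mean 155, adjusted p 1.69e-16). At 0-2 hr they were followed by Gyf, which rose (log2 0.36, adjusted p 0.00353), and by anne, CG11076 and 4E-T, which fell. The authors' deposited table gave anne a log2 of -0.26, CG11076 one of -0.28 and 4E-T one of -0.26, with adjusted p from 0.00748 to 0.00982. An eIF4E binding protein that represses translation is encoded by 4E-T. At 2-4 hr they were followed by the kinase gene CaMKII (log2 0.55) and the RING finger gene Rnf11 (0.85) in the authors' deposited table. Next there were the complex I subunit gene ND-49 (0.46) and CG11155 (0.93), and adjusted p ran from 2.47e-06 for CaMKII to 0.000558 for CG11155. Exons of CG31999, anne, Rnf11 and CG11155 overlap an annotated transposon, so part of their reads may belong elsewhere. Those of Rnf11, CG11076 and CG11155 also overlap another gene, and those of CG31997 overlap neither.

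**Figure D4:**
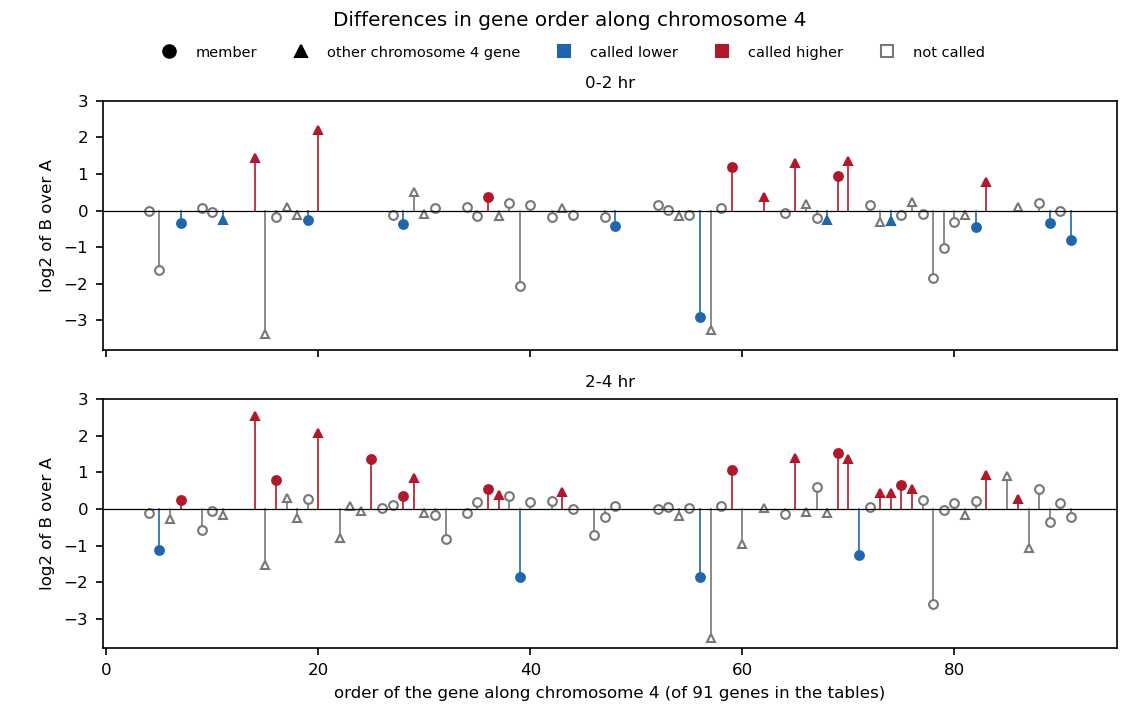
The log2 of condition B over condition A for chromosome 4 genes that reached a mean of 20, at 0-2 hr (top) and 2-4 hr (bottom), against their order along the chromosome, with members as circles and other genes as triangles. Genes called higher (red) and lower (blue) lie along the whole order, and at 2-4 hr the 4 genes called lower are ci, zfh2, ey and toy.

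In gene order, called genes were spread along the chromosome. Of 74 pairs of neighbours among the 75 genes with a mean of at least 20 at 2-4 hr, 6 pairs had both genes called higher, 0 had both called lower and 1 had opposite calls. At 0-2 hr there were 2 pairs with both higher, 0 with both lower and 4 with opposite calls, of 62. The longest run was Mpv17, CG11076, ATPsynbeta and CaMKII at 2-4 hr, whose log2 in the authors' deposited table was 0.45, 0.43, 0.65 and 0.55 in that order. The exons of CG11076 and ATPsynbeta overlap on opposite strands, so their values are not independent without strand. The same holds for fuss and lncRNA:sphinx, which lies across fuss on the other strand and for which the authors' deposited table held 1.35 early and 1.36 late (means 49.7 and 46.2). Their neighbour toy was called lower at both times.

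The members are long genes, as are the other genes of the chromosome. Among protein-coding genes with a mean of at least 20 at 2-4 hr, the 45 members spanned a median of 10.5 kb in the BDGP6 annotation, beside 2.88 kb outside chromosome 4, and held 4.59 kb of exon against 2.21 kb. The other 27 such chromosome 4 genes had medians of 10.6 kb and 4.38 kb. An exon of 14 of these 45 (31.1%) overlapped an annotated transposon, beside 33.3% of the other chromosome 4 genes and 1.94% of 6850 genes outside the chromosome. Reads from such a stretch may come from other copies of the transposon. Among all chromosome 4 genes at 0-2 hr, 6 of 21 with a transposon in an exon were called higher and 1 lower, and 3 of 42 without one were called higher and 10 lower. At 2-4 hr the counts were 8 higher and 1 lower of 25 with, and 12 higher and 3 lower of 50 without. Outside chromosome 4, 10.5% of 133 genes with a transposon in an exon were called higher and 15.0% lower at 0-2 hr, beside 9.80% and 10.1% of those without. At 2-4 hr 11.5% of 139 such genes were called higher and 25.9% lower, beside 13.1% and 15.0% of those without. The members with a transposon in an exon include Sox102F, fuss, NfI and toy, while bip2, ey, zfh2 and ci have none.

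Genes whose proteins bind chromosome 4 or heterochromatin were themselves lower in part at 2-4 hr. DESeq called 4 of 7 lower there, and 1 lower and 1 higher at 0-2 hr. Among all genes with a mean of at least 20, 15.4% were called lower at 2-4 hr. At 0-2 hr 10.3% of all such genes were called lower and 9.82% higher. The 7 genes were not tested as a set. The gene of POF, Pof, had a log2 of -0.77 at 2-4 hr per the authors' deposited table (mean 248, adjusted p 0.000190) and of -0.049 at 0-2 hr (mean 695, adjusted p listed as 1). The H3K9 methyltransferase gene Su(var)3-9 was called lower at both times, with a log2 of -0.58 (adjusted p 0.000270) and then -0.79 (adjusted p 2.11e-05) in the authors' deposited table. The heterochromatin protein gene Su(var)3-7 and the methyltransferase gene G9a were called lower at 2-4 hr, with -0.39 and -0.45 in the authors' deposited table. The partner of egg, wde, was called higher at 0-2 hr, with 0.56 in the authors' deposited table, while egg and the gene of HP1 were uncalled at both. Exons of Pof, Su(var)3-9, Su(var)3-7, egg and the gene of HP1 overlap another gene, so part of their reads may belong elsewhere. Those of G9a and wde overlap no other gene.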

How the data were processed

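Total RNA was extracted with trizol and libraries were made with a NuGEN Ovation kit that depletes rRNA, per the labels' protocols. Names in the submitters' processing notes, without roles, are dm3 as the build, HTSeq 0.5.4p3, DESeq, and TopHat2 2.0.13. Per the file headers, the authors deposited a normalized signal (the mean normalized count over both conditions), the ratio of B over A, its log2, a p-value and its adjusted p for each gene. The adjusted p equalled a Benjamini-Hochberg adjustment over all tested genes (13096 at 0-2 hr and 14245 at 2-4 hr). Another 4 columns, the means of each condition, were not used because no label matches them to a group.

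No test was fitted here: the design had edgeR in reserve for counts per library, and calls are those of the authors' deposited DESeq test. Members and lists were chosen with earlier results of these data known. Symbols came from a gene name table (15002 IDs named), renamed members from RefSeq synonyms (4 symbols), and chromosome, order, exon length, exon overlap and transposons from the BDGP6 annotation, release 115. No coordinates are printed because that build differs from dm3, and 680 IDs had no annotation and stayed out of the sets by chromosome. The named genes are all members, the 6 other chromosome 4 genes with the smallest adjusted p at each time, Clamp and genes of the fixed lists. Others (bt, Mpv17, lncRNA:sphinx, asRNA:CR43957, asRNA:CR44030, asRNA:CR45126) were named after their values were seen. Promoter sequence was not analysed here. The counting and adjustment steps were checked on simulated tables. Python 3.11.15, numpy 2.4.6, pandas 2.3.3, scipy 1.17.1 and matplotlib 3.10.9 were used.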

Additional observations from a re-analysis of the deposited data

How the results depend on the processing

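No paired analysis was possible because the tables hold no value per library, and for the same reason no library could be left out in turn. Of 76 alternatives to 14 counts and medians, 58 stayed within 1.5 times a count or 0.05 of a median log2, a tolerance used for want of replicate values. Subtracting the median outside chromosome 4 from that median itself gives 0 by construction and was left out. Without genes whose exons overlap another gene, members called higher numbered 1 at 0-2 hr (in place of 3) and 5 at 2-4 hr (in place of 8), members called lower at 2-4 hr 2 (in place of 4), and other chromosome 4 genes called higher 3 (in place of 6) and 5 (in place of 12), with a median log2 of -0.023 at 2-4 hr. Without genes whose exons overlap a transposon, an alternative chosen after seeing the data, members called higher numbered 1 and 5, and other genes 2 and 7, with a median of -0.011 at 0-2 hr. Fewer genes remain in both. At an adjusted p under 0.01, 3 other genes were called higher at 0-2 hr, and at one under 0.1, 7 members and 1 other gene were called lower at 2-4 hr. With a minimum mean of 100, 2 members were called lower at 2-4 hr, and the median of the other genes was -0.011 at 0-2 hr and 0.28 at 2-4 hr. With a minimum of 10, that median at 0-2 hr turned from 0.078 to -0.11. The cause was not tested.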
